A study of Rattus norvegicus with 38 samples.

Results

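Transthyretin (Ttr), fetuin-A (Ahsg), the fibrinogen beta chain (Fgb), argininosuccinate synthase (Ass1) and 4-hydroxyphenylpyruvate dioxygenase (Hpd) are genes of proteins and enzymes that hepatocytes make in bulk, and their RNA was followed here in blood leukocyte samples of rats. The 5 genes were taken by symbol: each is the only gene that the array's annotation gives for 1 probe, so there are 5 probes among 6104 that carry exactly 1 symbol and 26857 gene probes in all. The 5 probes are 21505429 for Ttr, 20772701 for Ahsg, 21964976 for Fgb, 21671442 for Ass1 and 21347308 for Hpd. All 5 passed the detection filter, Ttr only through the rats killed 24 h after acetaminophen.

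Hepatocytes secrete most plasma proteins. Transthyretin carries thyroid hormone and the retinol-binding protein in plasma, fetuin-A binds calcium phosphate and slows mineral deposition, and the fibrinogen beta chain joins the alpha and gamma chains to form the clotting protein. Argininosuccinate synthase joins citrulline and aspartate, a step of the urea cycle in liver that other cells, activated macrophages among them, use to remake arginine for nitric oxide. 4-Hydroxyphenylpyruvate dioxygenase is an enzyme of tyrosine breakdown that is most abundant in liver and is also present in kidney. Acetaminophen is an analgesic whose overdose injures hepatocytes, and methyl parathion is an organophosphate insecticide that inhibits acetylcholinesterase.

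The animals were male CDF Fisher 344 rats, about 4 months old, and each of the 38 gave 1 single-channel Applied Biosystems array of leukocyte RNA depleted of globin mRNA. Rats received 1 intraperitoneal dose of 1200 mg/kg acetaminophen or 15 mg/kg methyl parathion in vegetable oil and were killed 4, 12, 24 or 168 h later, with 4 rats per group and 3 at 168 h. Each chemical had its own 4 vehicle rats, which received vegetable oil and were killed at 24 h only, so a treated group at another time was compared with rats of a different time after dosing. All rats were killed by head-only microwave irradiation, blood was drawn from the heart, and leukocytes were collected from it, so that the samples are mixtures of cells.

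Signals are given as log2 of the deposited signal after quantile normalization, on which 1 unit is a doubling. Values below the 5th percentile (log2 6.4) were raised to it, and a probe counts as above background on an array where its signal-to-noise ratio is at least 3. Levels of different probes are not compared with each other. Each gene is read through 1 probe whose sequence was not used here, so that whether a probe measures only its annotated gene was not tested, and values are those of the probe. This bears most on Ahsg and Fgb, whose probes moved inversely with the signal of the whole array. They also moved together with many probes of other genes, as given further on. Tests are limma's moderated tests over 12805 probes with p-values adjusted by Benjamini-Hochberg, and a probe was called where the adjusted p was under 0.05. Between 36.4% and 51.7% of the probes of an array were above background, and the median signal before normalization ranged from 176.6 to 389.6. Correlations of arrays within groups were between 0.916 and 0.983. To check the labelled cells, markers of neutrophils, T cells, B cells and NK cells were read: each one with a probe was above background on at least 1 array of every group.

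The RefSeq promoter windows of the genes (rat build GRCr8, 250 bases before to 50 bases after the start) are shown for the genes with the clearest responses, Ttr and Ass1, and for the pair whose levels moved together from rat to rat, Ahsg and Fgb. The Ttr window lies at chr18:12218508-12218807 (plus strand), that of Ass1 at chr3:35149480-35149779 (plus strand), that of Ahsg at chr11:91632534-91632833 (minus strand) and that of Fgb at chr2:170700826-170701125 (minus strand). Capitals mark matches, on either strand, to the letters searched for liver-enriched factors and the TATA box: GTTAAT (HNF1), TGTTTAC (FOXA), CAAAGTCCA (HNF4), TTGCNNAA (C/EBP) and TATAAA.
Ttr: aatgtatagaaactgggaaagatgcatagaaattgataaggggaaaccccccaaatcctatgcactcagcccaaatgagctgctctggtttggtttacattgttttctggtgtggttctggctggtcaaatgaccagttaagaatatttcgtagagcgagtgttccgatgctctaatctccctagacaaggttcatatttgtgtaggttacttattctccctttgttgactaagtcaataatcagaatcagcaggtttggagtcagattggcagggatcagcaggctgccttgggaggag
Ass1: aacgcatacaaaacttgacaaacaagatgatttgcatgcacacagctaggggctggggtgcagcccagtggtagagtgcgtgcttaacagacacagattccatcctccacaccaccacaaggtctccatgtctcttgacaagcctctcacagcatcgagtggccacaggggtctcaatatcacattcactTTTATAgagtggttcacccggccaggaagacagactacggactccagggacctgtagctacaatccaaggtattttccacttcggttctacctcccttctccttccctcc
Ahsg: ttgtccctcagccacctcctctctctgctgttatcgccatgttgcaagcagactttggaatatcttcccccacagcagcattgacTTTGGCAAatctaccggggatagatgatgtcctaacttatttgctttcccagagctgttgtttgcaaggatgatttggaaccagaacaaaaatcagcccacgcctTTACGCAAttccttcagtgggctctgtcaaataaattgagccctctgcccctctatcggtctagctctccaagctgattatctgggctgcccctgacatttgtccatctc
Fgb: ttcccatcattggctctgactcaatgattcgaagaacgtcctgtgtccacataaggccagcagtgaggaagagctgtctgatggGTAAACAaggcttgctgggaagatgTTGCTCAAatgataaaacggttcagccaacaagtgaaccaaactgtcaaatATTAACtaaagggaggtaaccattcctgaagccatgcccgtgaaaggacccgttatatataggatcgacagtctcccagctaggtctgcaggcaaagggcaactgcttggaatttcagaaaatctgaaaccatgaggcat
RefSeq gives 1 window per gene. For Ahsg, Fgb and Hpd its start is the outer end of the annotated gene, whereas for Ttr and Ass1 it lies 2074 and 4965 bases inside the gene span, so that the region before the outermost annotated start of these 2 genes was not searched. The Ttr window holds none of the 5 motifs, and the Ass1 window holds only the TATA letters, reversed, at position -60 from the start. The Ahsg window holds 2 C/EBP matches, at -165 and -60. The Fgb window holds a FOXA match at -166, a C/EBP match at -141 and an HNF1 match at -90. The Hpd window (chr12:39041996-39042295, plus strand) holds 1 HNF1 match at -154. Among 33469 rat promoter windows, the C/EBP letters occur in 10.6%, the HNF1 letters in 7.5%, the FOXA letters in 3.8%, the HNF4 letters in 0.4% and the TATA letters in 14.2%. None of the matches overlaps another, and a match is only a run of letters.

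At 24 h after acetaminophen, 3 of the 5 genes (Ttr, Ass1 and Hpd) were called higher than in vehicle rats and none lower. Over all tested probes, 14.7% were called higher in that comparison and 35.6% in either direction, and the median log2 change was -0.064. Ttr was tested only because 3 of 4 rats of this group were above background, and the genes were chosen with earlier results known. The count of 3 is therefore not independent of these data. Without the detection filter limma also called 3 of the 5 higher. The log2 changes of the 5 genes ranged from 0.25 for Fgb to 2.68 for Ttr. For Ttr and Ass1 the treated and vehicle groups did not overlap. The share of all probes without overlap was not computed, so this is a description of the values only.

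**Figure D1:**
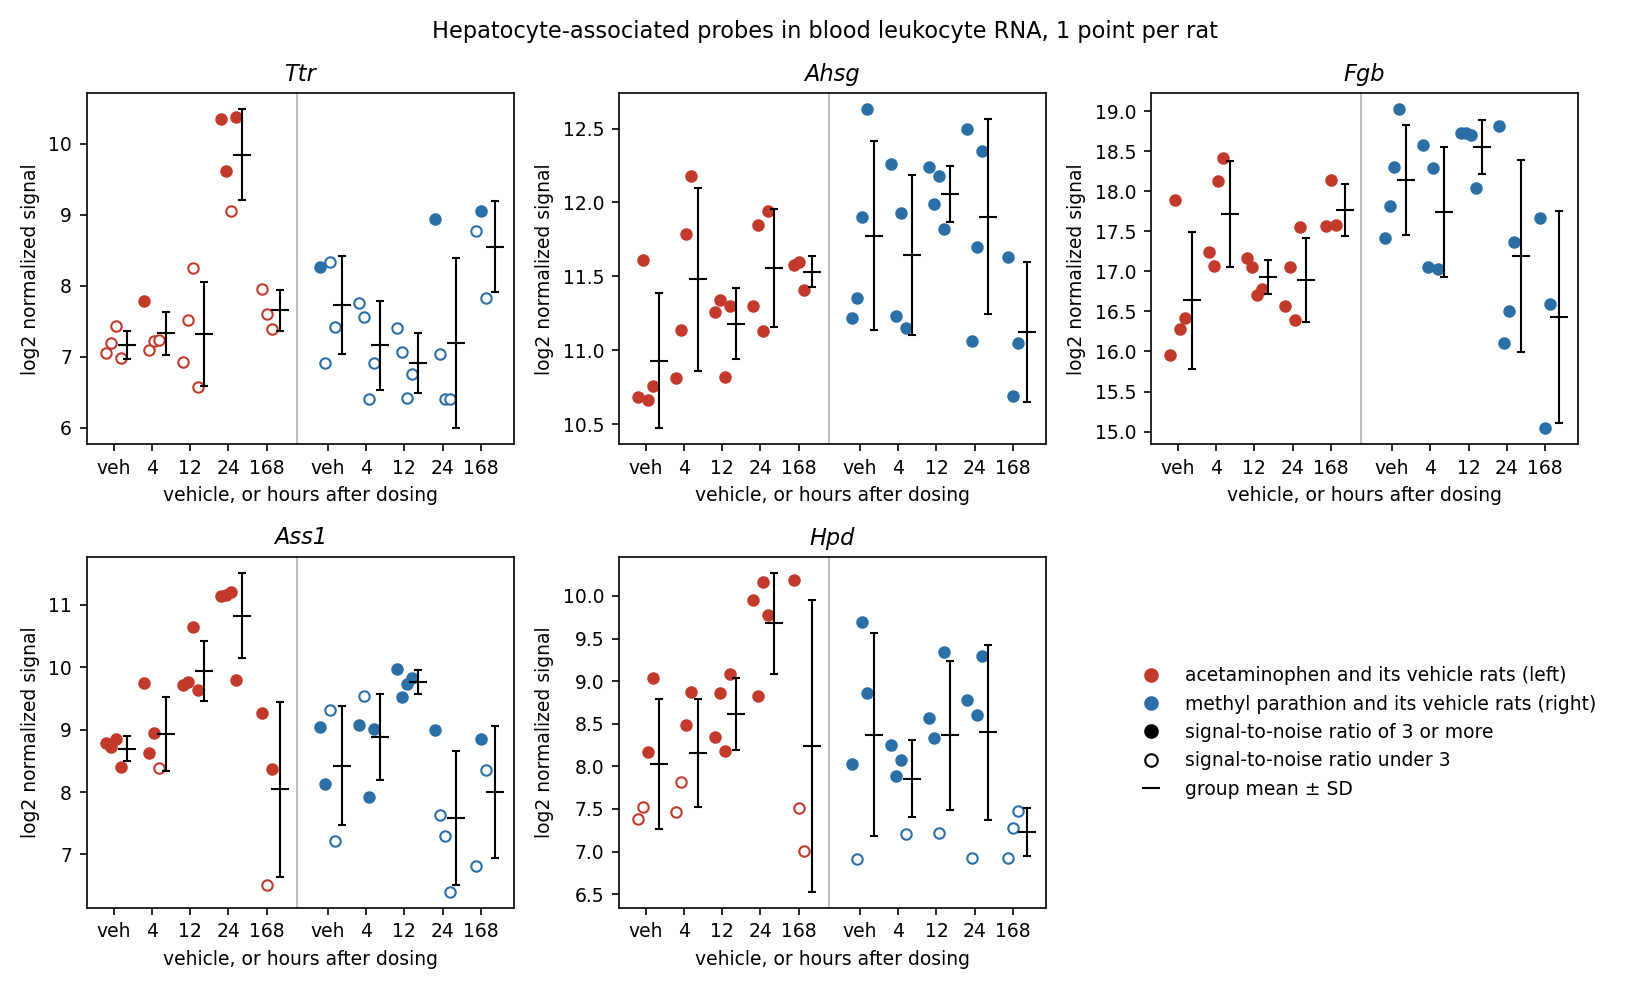
Log2 signal of the 5 probes in every rat (points) with group means ± SD (black lines), for vehicle rats (veh, killed at 24 h) and rats killed 4, 12, 24 and 168 h after each chemical. Filled points are above background (signal-to-noise at least 3) and open points are not. All 4 rats lay above 9 for Ttr at 24 h after acetaminophen and none did in the other acetaminophen groups, and Ahsg and Fgb were above background on all 38 arrays.

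Ttr had the largest change of the 5. Its log2 signal was 10.35, 9.61, 9.05 and 10.37 in rats 1 to 4 killed 24 h after acetaminophen, against 7.06, 7.19, 7.43 and 6.99 in the acetaminophen vehicle rats. All 4 treated rats lay above all 4 vehicle rats. The probe was above background in 3 of the 4 treated rats, with a signal-to-noise ratio of 2.97 in the fourth, and in none of the vehicle rats, so the size of the rise is a lower bound. It was at least 6.4-fold higher, with a log2 change of 2.68 ± 0.469 (SE) and an adjusted p of 1.91e-05. Of the 12805 tested probes, 202 rose by more.

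The rise of Ttr came between 12 and 24 h, and the level was lower again at 168 h. Means were 7.17 ± 0.20 in vehicle rats, 7.33 ± 0.31 at 4 h, 7.32 ± 0.73 at 12 h, 9.85 ± 0.64 at 24 h (SD, n = 4 each) and 7.65 ± 0.29 at 168 h (SD, n = 3). Ttr was above background in 1 of 4 rats at 4 h and in none at 12 or 168 h. The 24 h rats were at least 5.75-fold above the 12 h rats (log2 change 2.52, limma adjusted p = 0.000451), where 3.47% of all probes were called higher. The 168 h rats were at least 4.58-fold below the 24 h rats (log2 change -2.19, limma adjusted p = 0.000697), where 19.3% of all probes were called lower. In the order of its 10 group means, Ttr was highest 24 h after acetaminophen and next 168 h after methyl parathion (8.55 ± 0.64, SD, n = 3), with a gap larger than either SD. The 6 lowest means, 6.91 to 7.33, differed from their neighbours by less than the larger SD of each pair. Such gaps, here and for the other genes, describe the order of the means and do not test whether groups differ.

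Ass1, the enzyme that feeds arginine synthesis, was higher at 24 h as well. Its log2 signal was 11.15, 11.16, 11.20 and 9.80 in rats 1 to 4 at 24 h after acetaminophen, against 8.79, 8.73, 8.85 and 8.40 in the vehicle rats. The groups did not overlap, and all 8 arrays were above background. The change was 2.14 ± 0.532 on the log2 scale (4.39-fold, limma adjusted p = 0.00155). At 12 h the log2 signal was 9.71, 9.76, 10.65 and 9.63, again above every vehicle rat, but the change of 1.24 ± 0.532 had an adjusted p of 0.0688 in limma, where 34.3% of all probes were called. The 12 h and 24 h rats differed by 0.89, which did not pass the test (limma adjusted p = 0.412). By 168 h Ass1 had dropped, with 9.26, 6.51 and 8.37 in the 3 rats, which was -2.78 relative to 24 h (limma adjusted p = 0.00019). In the order of its group means, Ass1 was highest 24 h after acetaminophen (10.83 ± 0.69), followed by 12 h after acetaminophen (9.94 ± 0.48) and 12 h after methyl parathion (9.76 ± 0.19, SD, n = 4 each). These 2 were closer to each other than their larger SD and stood above the other 7 means by more than it, and those 7 lay between 7.58 and 8.93 with no neighbours further apart than their larger SD.

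Rat 4 of the 24 h group was the lowest of its group for Ass1 and, narrowly, the highest for Ttr (10.37, against 10.35 in rat 1). The same rat had the lowest Xbp1 (14.25, against 15.03 to 15.34 in the other 3), a transcription factor of the secretory pathway, and the lowest haptoglobin (Hp, 17.74 against 18.89 to 19.26). It also had the highest albumin (Alb) signal, 13.81, while rat 2 had the lowest, 11.42. Rat 2 was likewise lowest for Hpd and for the fibrinogen gamma chain. Ttr and Ass1 therefore did not rank these 4 rats alike, though the Ass1 values of rats 1 to 3 were nearly tied (11.15 to 11.20).

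Hpd was above background in 4 of 4 rats at 24 h after acetaminophen, with log2 signals of 9.95, 8.82, 10.16 and 9.78. In vehicle rats it was 7.38, 7.52, 8.17 and 9.04, above background in 2 of 4. Treated rats 1, 3 and 4 lay above every vehicle rat, and rat 2 lay below vehicle rat 4. The change was 1.65 ± 0.587 (3.14-fold, limma adjusted p = 0.0257). The adjusted p was between 0.0515 and 0.0849 when vehicle rat 1 or 2, or treated rat 1, 3 or 4, was left out. At 12 h Hpd was above background in all 4 rats (8.34, 8.86, 8.18 and 9.08) with a change of 0.59 (limma adjusted p = 0.487). At 168 h the 3 rats spread widely, at 10.19, 7.51 and 7.01, and the drop of -1.44 relative to 24 h had an adjusted p of 0.0725 in limma. Among the 10 group means of Hpd, the one at 24 h after acetaminophen (9.68 ± 0.59, SD, n = 4) was highest and the one at 168 h after methyl parathion (7.23 ± 0.28, SD, n = 3) lowest, each apart from its neighbour by more than the larger SD. The 8 means between them, 7.85 to 8.61, were not.

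**Figure D2:**
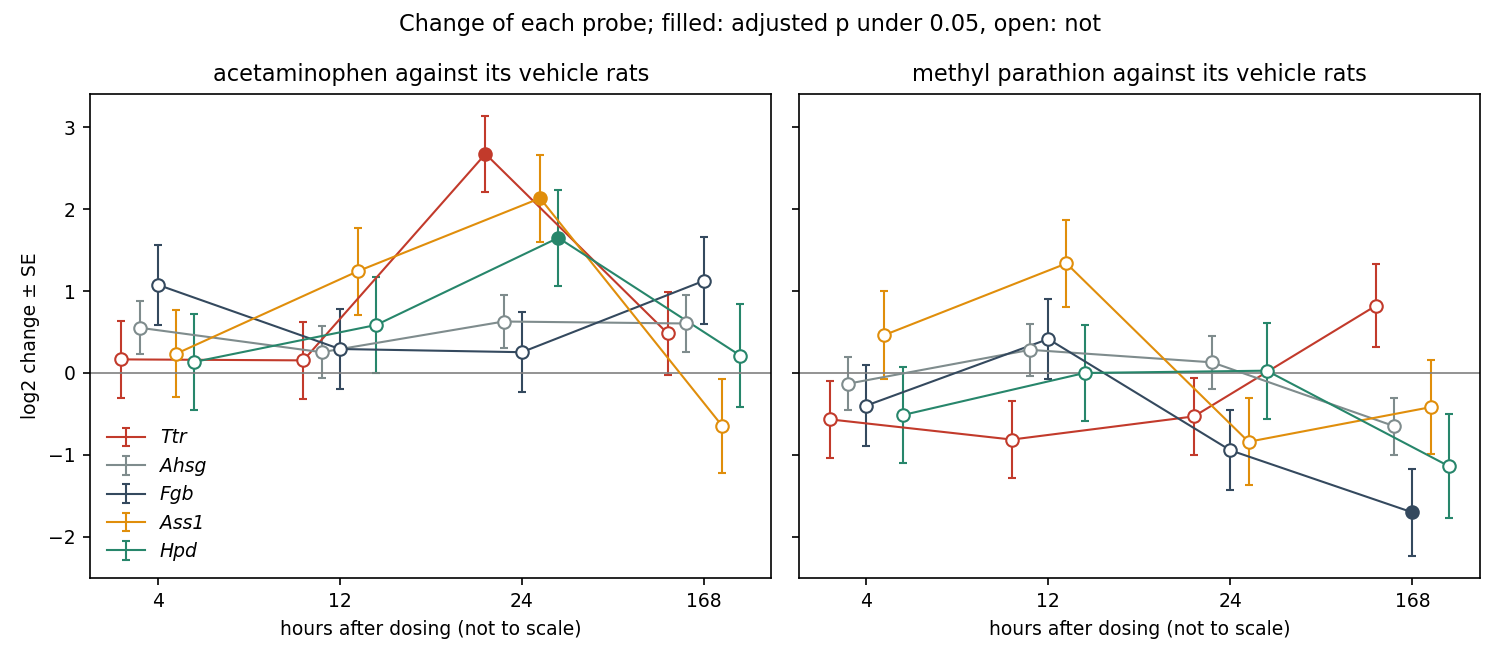
Log2 change ± SE of each gene against the vehicle rats of the same chemical at 4, 12, 24 and 168 h (time axis not to scale), with filled points where the adjusted p was under 0.05. Filled points are Ttr (2.68), Ass1 (2.14) and Hpd (1.65) at 24 h after acetaminophen and Fgb (-1.71) at 168 h after methyl parathion.

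Some markers of hepatocytes moved with these rises. The summed signal of 7 hepatocyte marker probes was 4480 to 20200 at 24 h after acetaminophen, against 1040 to 1450 in its vehicle rats. Most of the sum at 24 h came from Alb (log2 signal 11.42 to 13.81) and Apoc3 (9.69 to 12.24). The 3 tested markers of 8 in that list all rose (median log2 change 2.80), where 14.7% of all probes were called higher. Of these 3, Alb passed the detection filter only through the 24 h acetaminophen group. Serpina1 passed it through that group and the 168 h methyl parathion group, so their rise is not independent of the filter. The probes of Ambp and Cps1, defining hepatocyte genes, were above background on no array of the 24 h group. Tat was above it on 1 array of that group and Apoa1 on 2. Blood cell markers moved as well: the summed neutrophil signal was 2990000 to 4200000, against 1240000 to 1770000 in vehicle rats, and the summed T cell signal was 58300 to 90600, against 173000 to 212000. The part of these shifts in the results for the 5 genes was not tested. In such mixtures more cells of a type and more RNA per cell cannot be told apart.

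The genes around each of the 3 were read from lists of pathway partners. Of 32 liver plasma protein genes, 25 had a probe and 15 were tested. At 24 h after acetaminophen 12 of the 15 rose and none fell, where 14.7% of all probes were called higher. The median log2 change was 1.87, against -0.064 over all tested probes. Alb, Mup4, Mup5, Gc and Ttr were above background in most rats of that group alone, and were tested only because of it. The count and the median are therefore not independent of the detection filter. Ttr and Alb were the only tested genes among 7 of thyroid hormone and retinol transport, and both rose. Alb rose at least 51.6-fold and the major urinary protein genes Mup5 and Mup4 at least 68.5-fold and 58.8-fold, with vehicle rats below background. At 12 h after acetaminophen 5 of the 15 rose, where 13.8% of all probes were called higher, and none was called at 4 or 168 h.

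Genes of arginine handling rose together with Ass1. Of 12 urea cycle and arginine genes, 10 had a probe and 6 were tested. At 24 h after acetaminophen, where 14.7% of all probes were called higher, 5 of the 6 rose (median 1.46). Those with the largest rises were Arg2, the mitochondrial arginase found in many cell types, at 3.73 ± 0.445, Nos2, the inducible nitric oxide synthase, at 3.54 ± 0.307, and Ass1. The other 2 were Gatm, which uses arginine to make a creatine precursor (0.78 ± 0.277), and Asl, which splits argininosuccinate to arginine (0.68 ± 0.175). Both were named after their values were seen. Arg2 passed the detection filter only through the 12 h and 24 h acetaminophen groups, so the count of 5 is not independent of the filter. Asl was 13.40, 13.39, 13.52 and 12.99 in treated rats, against 12.59, 12.63, 12.37 and 13.01 in vehicle rats, so its groups overlapped. The arginine transporter gene Slc7a1 changed by 0.15 at 24 h (limma adjusted p = 0.86) and fell by 1.56 ± 0.524 at 12 h, and Nos2 was already 3.31 ± 0.307 higher at 12 h.

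Asl was above background on all 38 arrays, whereas 3 other liver enzymes of the urea cycle were at or near background. Cps1, carbamoyl phosphate synthetase, and Otc, ornithine transcarbamylase, were below background on all 38 arrays. Arg1, the liver arginase that acts after Ass1, was above background on 1 of 38, an array of the 24 h acetaminophen group. None of the 3 was tested.

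Fewer genes could be read around Hpd. Of 6 tyrosine breakdown genes 4 had a probe and 2 were tested: Hpd, and Fah, the last enzyme of the pathway, whose change at 24 h was 0.41 ± 0.348 (limma adjusted p = 0.391). Of 30 hepatocyte enzyme genes 25 had a probe and 7 were tested. At 24 h, where 14.7% of all probes were called higher, 4 of the 7 rose and none fell (median 1.23). These were Ass1, Asl, Hpd and Gnmt, the glycine methyltransferase of liver, which was at least 3.66-fold higher (limma adjusted p = 0.00573). Gnmt passed the detection filter only through the 24 h acetaminophen group. Cyp2e1, the cytochrome that oxidises acetaminophen, changed by 1.23 ± 0.529 (limma adjusted p = 0.0691).

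**Figure D3:**
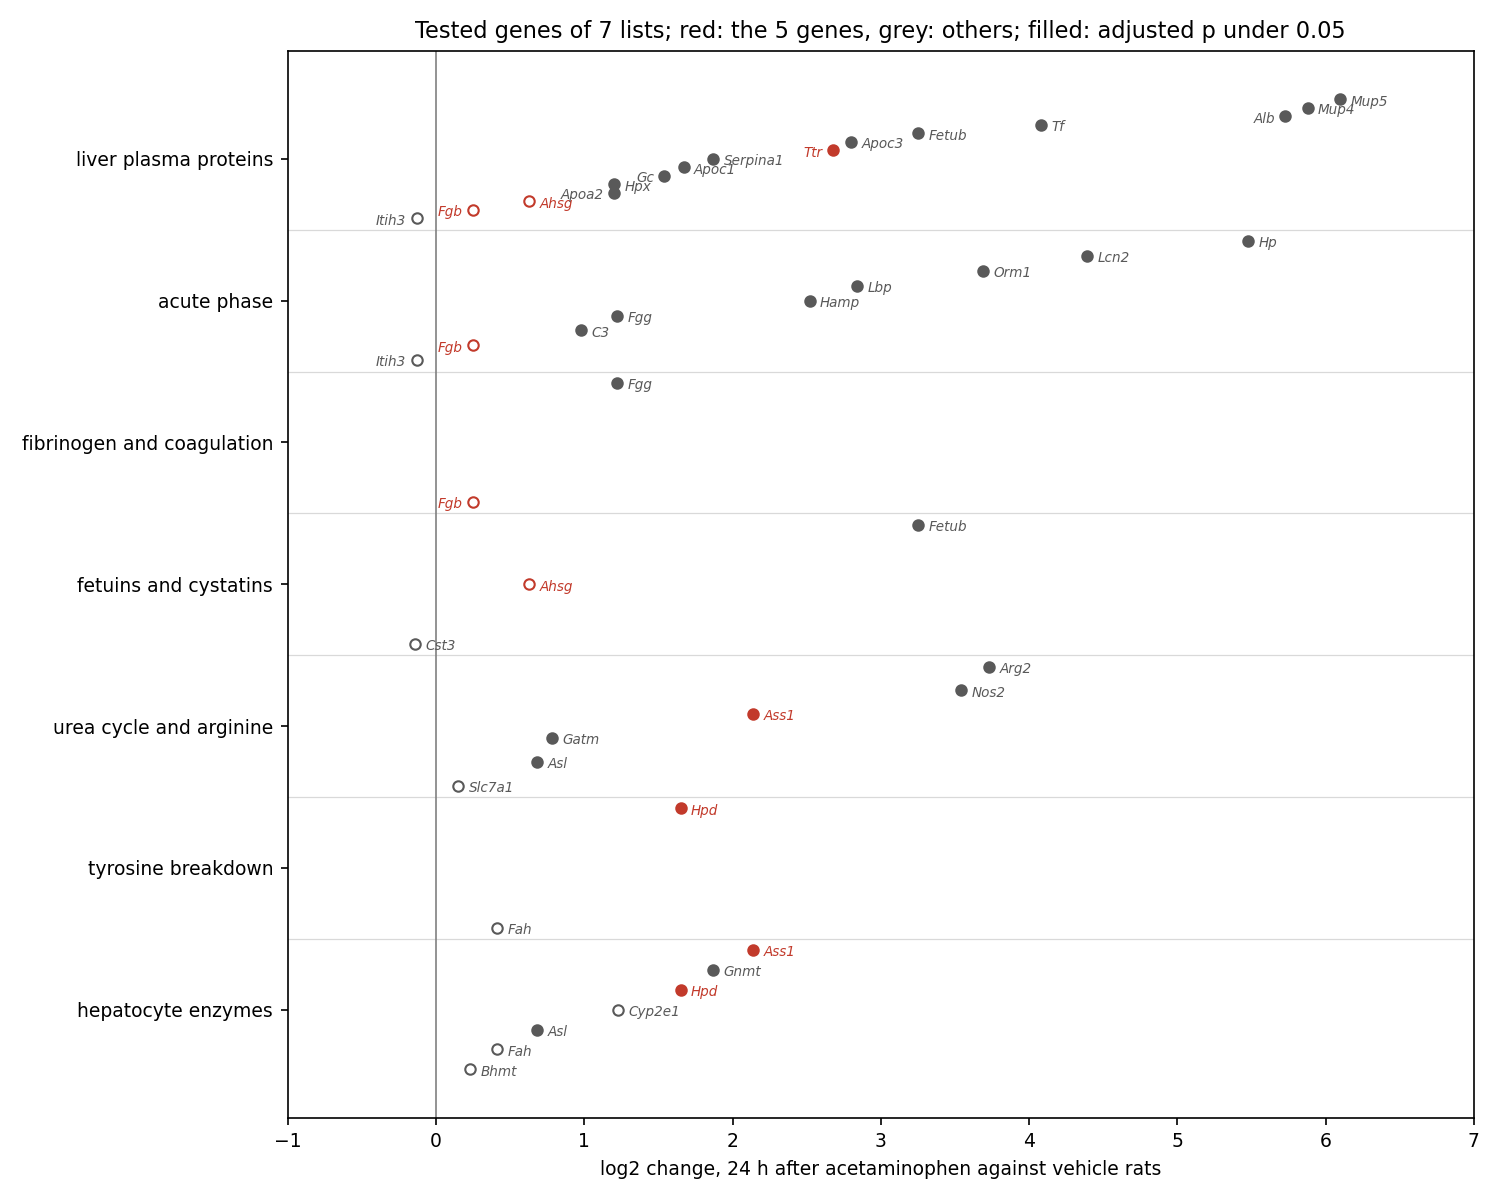
Log2 change at 24 h after acetaminophen against vehicle rats for every tested gene of 7 lists, with the 5 genes in red, others in grey, and filled points where the adjusted p was under 0.05. Ahsg (0.63) and Fgb (0.25) are open points in lists in which Fetub (3.25) and Fgg (1.22) are filled.

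Ahsg and Fgb were not called after acetaminophen at any time. Ahsg was above background on all 38 arrays, with log2 signals of 11.30, 11.85, 11.13 and 11.94 at 24 h after acetaminophen, against 10.68, 11.61, 10.66 and 10.76 in vehicle rats. Vehicle rat 2 stood apart from the other 3 and within the range of the treated rats. The change was 0.63 ± 0.321, with a 95% interval of -0.025 to 1.28 and an adjusted p of 0.132 in limma. Without vehicle rat 2 the change was 0.86 (limma adjusted p = 0.0457), and with array weights it was 0.77 (limma adjusted p = 0.00549). The interval at 24 h holds no change as well as a rise of more than 2-fold. The 10 group means of Ahsg lay between 10.93 and 12.06, and no neighbours in their order were further apart than their larger SD.

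Fgb was also above background on every array, at log2 15.04 to 19.02. At 24 h after acetaminophen it was 16.57, 17.05, 16.39 and 17.55, against 15.96, 17.89, 16.28 and 16.42 in vehicle rats. The vehicle rats enclosed all 4 treated rats, and the change was 0.25 ± 0.491 (limma adjusted p = 0.733, 95% interval -0.745 to 1.25). Vehicle rat 2 was the highest of its group here too. Leaving out 1 rat gave changes of 0.03 to 0.67, the highest without that rat, and the vehicle rats of both chemicals gave -0.50, with none called. At 4 h and at 168 h Fgb was 1.08 ± 0.491 and 1.13 ± 0.531 higher than in vehicle rats, with limma adjusted p-values of 0.188 and 0.158. Its 10 group means, 16.43 to 18.55, likewise had no neighbours further apart than their larger SD.

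A close relative of each gene was called at 24 h. Fgg, the fibrinogen gamma chain, was 8.75, 7.35, 9.14 and 9.25 in treated rats, against 7.01, 7.26, 7.10 and 8.25 in vehicle rats, above background in 3 of the 4 treated and in 0 of the 4 vehicle rats. It was at least 2.33-fold higher (log2 change 1.22 ± 0.477, limma adjusted p = 0.0437). Fgb and Fgg were the only 2 tested genes of 15 in the fibrinogen and coagulation list, 10 of which had a probe. Fgg passed the detection filter only through the 24 h acetaminophen group. Fetub, fetuin-B, was 13.88, 14.22, 14.40 and 13.36 in treated rats, against 11.03, 10.68, 10.56 and 10.60 in vehicle rats, with no overlap and a change of 3.25 ± 0.358 (limma adjusted p = 5.89e-09). It was already 2.77 ± 0.358 higher at 12 h. Cystatin C (Cst3), the third tested gene of the 6 fetuin and cystatin genes, changed by -0.14 ± 0.314. Differences between genes of a pair were not tested.

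Among 16 acute phase genes, 15 had a probe and 9 were tested. At 24 h after acetaminophen, where 14.7% of all probes were called higher, 7 of the 9 rose and none fell (median 2.52). Of the 15 with a probe, 5 (Crp, A2m, Saa4, Cp and Itih4) were above background on no array of that group. Haptoglobin, which binds free haemoglobin, rose by 5.48 ± 0.345, lipocalin 2 (Lcn2), an iron-siderophore binder of neutrophil granules and liver, at least 21-fold, and orosomucoid (Orm1) by 3.69 ± 0.706. Fgb was among the 2 tested genes that were not called. Lcn2 and Fgg, both called, passed the detection filter only through the 24 h acetaminophen group.

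The levels of Ahsg and Fgb followed each other from rat to rat. Over 38 rats, deviations from the group means had a Pearson r of 0.895 and a Spearman rho of 0.91, each with a permutation p of 1e-05, the smallest that 100000 permutations within groups can give. The adjusted p was 0.00015 over the 15 relations computed among the 5 genes and the array median signal, and r was 0.886 without the 2 rats farthest from the median of Ahsg. Both also moved inversely with the median signal of the array before normalization: r was -0.654 for Ahsg (rho -0.661, adjusted permutation p = 0.0026, -0.621 without the 2 farthest) and -0.639 for Fgb (rho -0.619, adjusted permutation p = 0.0033, -0.598 without the 2 farthest). The part of array signal in their relation was not tested. With arrays scaled by their medians instead, r between Ahsg and Fgb was 0.83. The relation was not particular to this pair. By the r of log2 signals without removal of group means (0.84), Fgb ranked 63 among 3498 other named probes for Ahsg. Ahsg ranked 56 for Fgb.

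Ttr and Ass1 showed a looser relation. Deviations had an r of 0.514 (permutation p = 0.01) and a rho of 0.507 (permutation p = 0.0082), with an adjusted p of 0.038 over the same 15. Without the 2 rats farthest from the median of Ttr, r was 0.382. Ttr was above background on 7 of the 38 arrays, with 3 values at the floor, and Ass1 on 28. Most of the Ttr deviations used here are therefore of signals below background. The other 11 relations had adjusted permutation p-values of at least 0.14. For Ahsg and Fgb the pooled within-group SD (0.48 and 0.76) exceeded the SD of the 10 group means (0.36 and 0.69), and the same held for Hpd (0.86 and 0.62), while for Ttr (0.64 and 0.89) and Ass1 (0.78 and 1.0) it did not.

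**Figure D4:**
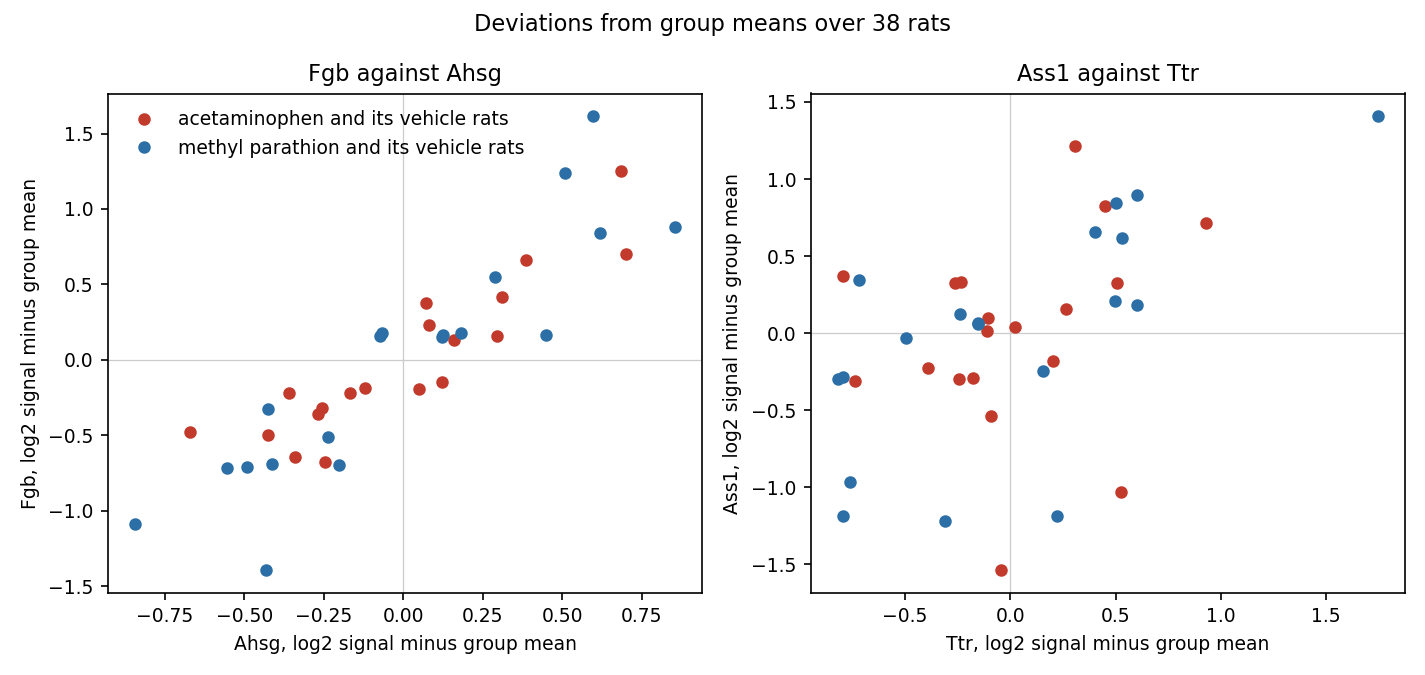
Deviation of each of the 38 rats from its group mean on the log2 scale, for Fgb against Ahsg (left) and Ass1 against Ttr (right), coloured by chemical. Points for Fgb and Ahsg lie along a line (r = 0.895), and those for Ass1 and Ttr scatter (r = 0.514).

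Likeness to other named genes over the 38 arrays is given as a description, since the arrays share their groups and their overall signal. The probes most like Ttr were Apoc3 (r = 0.755), an apolipoprotein made in liver, App (0.733), Mup4 (0.717), Mup5 (0.709) and Socs2 (0.678). Those most like Ass1 were Tmed10 (0.769), Il1rap (0.764), Mnda (0.758), Xbp1 (0.757) and Acsl4 (0.751). Hpd had Yipf3 and Gch1 (0.636 each), Apoa2 (0.621), Rims2 (0.62) and Fosl2 (0.602). Ahsg was most like Egfr (0.949), Hrh3 (0.937), Hcn4 and Fam151a (0.935 each) and Oprm1 (0.934), which include receptor and channel genes best known from epithelium, brain and heart. Fgb was most like Sncg (0.976), Prx (0.964), Nbl1 (0.958), Sectm1b (0.948) and Gpx6 (0.947). Of 3498 other named probes, 82 had an r over 0.8 with Ahsg and 74 with Fgb, and none had one with Ttr, Ass1 or Hpd.

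At the other times after acetaminophen none of the 5 genes was called, where 6.58%, 34.3% and 11.1% of all probes were called at 4, 12 and 168 h. At an unadjusted limma p under 0.05 there was 1 of 5 at each time: Fgb at 4 h, Ass1 at 12 h and Fgb at 168 h. With array weights in limma these 3 were called, as was Ass1 at 12 h with vehicle rats of both chemicals or with only the arrays compared.

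After methyl parathion none of the 5 genes was called at 4, 12 or 24 h, where 0%, 8.04% and 2.38% of all probes were called, and 1, Fgb, was lower at 168 h, where 9.13% were called lower and 18.2% in either direction. At an unadjusted limma p under 0.05 the counts were 0, 1 and 0 at the 3 earlier times, the 1 being Ass1 at 12 h. At 4 h limma called no probe at all, while 1371 had an unadjusted p under 0.05 and 392 were called with array weights. Fgb was 17.67, 15.04 and 16.59 at 168 h, against 17.42, 17.81, 18.30 and 19.02 in the methyl parathion vehicle rats. Treated rats 2 and 3 lay below every vehicle rat, and rat 1 lay within their range. The change was -1.71 ± 0.531 (limma adjusted p = 0.0235). Without treated rat 2 it was -1.01 (limma adjusted p = 0.239), without vehicle rat 4 it was -1.41 (limma adjusted p = 0.0839), and against the vehicle rats of both chemicals it was -0.95 (limma adjusted p = 0.213). The acetaminophen vehicle rats were 1.50 ± 0.491 lower in Fgb than the methyl parathion vehicle rats (limma adjusted p = 0.21), in a comparison where limma called 0 of 12805 probes. There 1378 probes had an unadjusted p under 0.05, Ahsg and Fgb among them.

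Ass1 did not overlap with vehicle rats 12 h after methyl parathion. It was 9.97, 9.52, 9.73 and 9.83, against 9.04, 8.13, 9.32 and 7.21 in vehicle rats. All 4 treated rats lay above all 4 vehicle rats, but the change of 1.34 ± 0.532 had an adjusted p of 0.113 in limma. At 24 h it was 8.99, 7.64, 7.30 and 6.40, with 1 of 4 above background and the last at the floor. The fitted change was -2.18 relative to 12 h (limma adjusted p = 0.0452), a comparison in which 0.515% of all probes were called lower. Against vehicle rats the 24 h change was -0.84 ± 0.532 (limma adjusted p = 0.442).

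Ttr, Hpd and Ahsg were not called after methyl parathion. Ttr was 8.94, 7.04, 6.40 and 6.40 at 24 h, with 1 of 4 above background and 2 at the floor, and 8.77, 9.05 and 7.83 at 168 h, against 8.26, 6.91, 8.33 and 7.42 in vehicle rats. Its change at 168 h was 0.82 ± 0.506 (limma adjusted p = 0.258). Hpd was below background in all 3 rats at 168 h (6.93, 7.28 and 7.48), and above it in 3 of the 4 vehicle rats (8.03, 6.91, 9.69 and 8.86). That is at least 2.2-fold lower, with a limma adjusted p of 0.208. Ahsg changed by between -0.65 at 168 h and 0.28 at 12 h. The summed hepatocyte marker signal was 1370 to 1790 at 24 h after methyl parathion, against 1120 to 1260 in vehicle rats, so the groups did not overlap. At 24 h Alb, Apoc3 and Tat were above background on 1 of 4 arrays each, and the other 4 probes on none. In vehicle rats Apoc3 was above it on 2 arrays and Tat on 1, and the other 5 probes on none. These sums therefore rest largely on signals below background. The part of the summed marker signal in the results was not tested. Of the 15 tested liver plasma protein genes, 1 rose at 12 h, transferrin (Tf, 0.84 ± 0.21, limma adjusted p = 0.0133), none was called at 24 h and 2 fell at 168 h, Fgb and Fetub (-1.31, limma adjusted p = 0.017).

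The change after acetaminophen minus the change after methyl parathion was tested at each time. At 24 h it was called for 2 of the 5 genes, Ttr and Ass1, where 25.7% of all probes were called in either direction and 11.9% in favour of acetaminophen. The difference was 3.21 ± 0.663 for Ttr (limma adjusted p = 0.000428) and 2.98 ± 0.752 for Ass1 (limma adjusted p = 0.00318). These sizes rest partly on signals below background: Ttr was above it in 1 of 4 rats at 24 h after methyl parathion, in none of the acetaminophen vehicle rats and in 1 of 4 methyl parathion vehicle rats, and Ass1 in 1 of 4 and, among methyl parathion vehicle rats, 2 of 4. For Hpd it was 1.62 ± 0.83, which did not pass the test (limma adjusted p = 0.152), so the rise of Hpd was not shown to differ between the chemicals. At 168 h the difference was called for Fgb alone, at 2.83 ± 0.751 (limma adjusted p = 0.0328), where 3.4% of all probes were called in either direction and 2.67% in favour of acetaminophen. None of the 5 was called at 4 or 12 h, where 0% and 11.4% of all probes were called, and at an unadjusted limma p under 0.05 there was 1 at 4 h (Fgb) and 0 at 12 h. At 4 h limma called no probe in this difference, while 1879 had an unadjusted p under 0.05 and 757 were called with array weights.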

How the data were processed

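Leukocyte RNA of 38 rats was measured on 1 array each, and the groups were taken from the sample titles. Per the labels, the cRNA was labelled with digoxygenin and detected by chemiluminescence. The deposited scanner tables give a linear signal intensity per probe, a signal-to-noise score and a whole-number quality flag of another kind. The authors' series table gives log2 values, which equalled the log2 of quantile-normalized intensities to within 5e-09. Scanner settings, scan batches and the array's genome build are not given in the sources used here, so no batch was tested.

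Gene symbols came from the platform annotation, which can be old: 6104 probes have 1 symbol (6081 matched to RefSeq by Entrez ID), 70 several and 20683 none. The 322 control spots were left out, spots flagged at 5000 or above (0.96% of values) counted as missing, and values under the 5th percentile (signal 84.7) were raised to it. Probes at a signal-to-noise ratio of 3 or more in most arrays of a group and with at least 2 values in each group were tested, 12805 of 12807 detected. Among the list genes, Ttr, Alb, Mup4, Mup5, Gc, Fgg, Gnmt and Lcn2 passed this filter through the 24 h acetaminophen group alone. Arg2 passed it only through the 12 h and 24 h acetaminophen groups. Counts of tested list genes that rose there are therefore not independent of the filter. The model had 1 term, the 10 groups, and was run in R 4.3.3 (limma 3.58.1, variance prior dependent on the mean, 28 residual and 6.31 prior degrees of freedom). Tests were two-sided, adjusted by Benjamini-Hochberg over the 12805 probes. The steps were tested on simulated data.

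Where no array of a group was above background, the fold of the group means is a bound. Such a bound concerns detection only and leaves out the error of sampling few rats. Relations between genes used deviations from group means, permuted within groups. The same replicate numbers do not pair rats (correlations of deviations from -0.399 to 0.212). The members and gene lists were chosen with earlier results of these data known. Named were the 5 genes, the 5 named probes most like each, and from each list the 3 largest changes among those called 24 h after acetaminophen (every tested gene in lists of 8 or fewer), with exceptions stated. No 2 arrays held identical values. Precision is limited by the 3 or 4 arrays per group.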

Additional observations from a re-analysis of the deposited data

Results flagged for a closer look

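Within groups of 4 rats, 5 of the 40 gene-and-group combinations screened had 1 rat whose gap to the others was large for the group's range, and chance alone gives this in about 5% of groups. Ahsg was lowest in rat 3 at 12 h after acetaminophen, at a log2 signal of 10.82, against 11.26 to 11.34 in the other 3. Ahsg was highest in acetaminophen vehicle rat 2, at 11.61, against 10.66 to 10.76, and the Ahsg change at 24 h passes the test without that rat. Fgb was lowest in rat 4 at 12 h after methyl parathion, at 18.04, against 18.70 to 18.73. Ass1 was highest in rat 3 at 12 h after acetaminophen, at 10.65, against 9.63 to 9.76, and lowest in rat 4 at 24 h, at 9.80, against 11.15 to 11.20.

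The changes after the 2 chemicals differed, by the test of the difference in limma, for Ttr at 24 h (3.21 on the log2 scale, acetaminophen minus methyl parathion), Ass1 at 24 h (2.98) and Fgb at 168 h (2.83). The Fgb difference holds a change of 1.13 after acetaminophen and of -1.71 after methyl parathion, against vehicle groups that themselves differed by -1.50 (acetaminophen minus methyl parathion). The part of the vehicle groups in it was not tested.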

How the results depend on the processing

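Ttr and Ass1 at 24 h after acetaminophen kept direction and call in all 18 alternatives run, at 2.40 to 2.94 and 2.01 to 2.48 on the log2 scale. Hpd kept its call in 13 of 18, at 1.48 to 1.99, and lost it in 5 that each left out 1 rat, at 1.43 to 1.62. Leaving out 1 rat gave 2 to 3 genes called at 24 h after acetaminophen and 0 to 1 at 168 h after methyl parathion. For Fgb at 168 h after methyl parathion, called in 13 of 17 alternatives, the count was 0 with only the arrays compared (-1.71, limma adjusted p = 0.0644) and 0 with vehicle rats of both chemicals. With median centring the count there was 2, as Ahsg also fell (-0.98, limma adjusted p = 0.0278). Median centring moved the median change of all probes by over 0.1 in 4 comparisons with vehicle, to -0.378 at 168 h after acetaminophen and -0.252, -0.287 and -0.265 at 12, 24 and 168 h after methyl parathion. Array weights gave 1 gene each at 4 h (Fgb 1.17), 12 h (Ass1 1.13) and 168 h (Fgb 1.38) after acetaminophen, 1 at 12 h after methyl parathion (Ass1 1.39) and 2 in the 168 h difference (Fgb and Ahsg). At 12 h after acetaminophen the count was 1 with vehicle rats of both chemicals (Ass1 1.38) and 1 with only the arrays compared (Ass1 1.24). With the replicate block, 3 genes were called at 24 h after acetaminophen and 1 at 168 h after methyl parathion, and it changed no other count. No change reversed direction among called results.

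Counts over all probes moved more. With array weights 2113 probes were called at 4 h after acetaminophen (842 otherwise), 2601 at 168 h (1421), 392, 3719 and 874 at 4, 12 and 24 h after methyl parathion (0, 1029 and 305), and 757, 3007 and 1356 in the differences at 4, 12 and 168 h (0, 1463 and 435). Median centring gave 203 at 4 h after acetaminophen, 324 and 1531 at 12 and 168 h after methyl parathion (2334 at 168 h otherwise), and 441, 2027 and 172 in the differences at 12, 24 and 168 h (3290 at 24 h otherwise). Without the detection filter there were 540 at 4 h after acetaminophen and 659 and 157 at 12 and 24 h after methyl parathion, and with detection on at least 1 array 164 at 24 h. With vehicle rats of both chemicals 2870 were called at 12 h after methyl parathion, and with only the arrays compared 0 at 4 h after acetaminophen and at 12 and 24 h after methyl parathion. Leaving out 1 rat gave 179 to 1624 at 4 h and 387 to 1238 at 168 h after acetaminophen, and 253 to 1909, 17 to 872 and 1296 to 2034 at 12, 24 and 168 h after methyl parathion. The lowest of these came without treated rat 3 and treated rat 2 for acetaminophen, and without treated rats 1, 4 and 2 for methyl parathion. The causes were not tested. Signals near background limit Ttr and Hpd outside the 24 h acetaminophen group.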

Other observations

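Markers of organs other than liver were read in the same arrays, as blood came from the heart. At 24 h after acetaminophen the summed signal of 4 heart muscle probes was 1500 to 1840, against 627 to 1340 in its vehicle rats. In the methyl parathion vehicle rats it was 1430 to 1900, which encloses the range at 24 h after acetaminophen. Of 2 tested heart markers 1 rose at 24 h after acetaminophen, where 14.7% of all probes were called higher. Of 5 kidney tubule markers, none was above background in either group and none was tested. Of 4 pancreas markers the summed signal was 1250 to 2090, against 919 to 2070 in vehicle rats.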
